A study of Homo sapiens with 16 samples.

Results

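The long intergenic noncoding RNAs described here were the genes whose symbol is LINC followed by digits with nothing after them and whose counts, summed over all 16 libraries, reached 500. The counts covered 57736 genes, of which 55501 had a symbol, 2097 were LINC genes and 132 reached the minimum. The other 1965 LINC genes stayed under it and 485 of them had no count in any library. The 132 members held 81.8% of all LINC counts. Just inside the minimum were LINC00900 with 500 counts, LINC03051 with 515 and LINC00698 with 517, and just outside were LINC02575 and LINC03048 with 498 each and LINC00467 with 494. The summed count chose the members, so a member could enter through 1 stage alone: 40 of the 132 would have missed the minimum without the 4 libraries of their highest stage, which was D0 for 10 of them, D12 for 19, D30 for 4 and D70 for 7. Such members had to differ between stages, and counts over the members are given as descriptions for this reason.

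Long intergenic noncoding RNAs are transcripts without a recognised protein product that are transcribed from their own promoters between protein-coding genes. Many are spliced and polyadenylated like messenger RNAs, are present at lower levels, and are more restricted to single cell types. In human pluripotent cells a class of them starts in long terminal repeats of the endogenous retrovirus HERV-H and is shut down when the cells leave pluripotency, and in the developing cortex several lie beside genes of neural transcription factors. The symbol LINC describes a position and not a function, and most members have no assigned role.

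The study took H9, a widely used line of human embryonic stem cells, through cortical differentiation with inhibition of both SMAD branches by LDN193189 and SB431542. RNA was sequenced from undifferentiated cells (D0) and after 12, 30 and 70 days (D12, D30 and D70). At each stage 2 libraries came from cells kept in the solvent DMSO (control) and 2 from cells kept at 40 µM Thiamet-G (TMG), an inhibitor of the enzyme that removes O-linked N-acetylglucosamine from proteins, from the undifferentiated state on. All 8 groups are therefore the same line and the same protocol, and the 2 libraries of a group are biological replicates in the description of the study. Libraries were grouped by their titles, because in 8 libraries the treatment tag disagrees with the title.

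Libraries held 10334908 to 19836878 counts, and members took between 0.0913% (D70 TMG replicate 2) and 0.166% (D12 control replicate 1) of a library. No more than 5 members were at 0 in any library, and those 5 were in D70 TMG replicate 2. Levels are given as CPM, the depth-scaled count unit of edgeR on the TMM scale, which divides by library size and not by gene length, so they compare libraries and not genes. Stem cell markers summed to 2.76e+03 to 3.09e+03 CPM on D0 and to 1.34 to 2.89 CPM on D70. PAX6 reached 304 to 585 CPM on D12, whereas SOX1, another defining progenitor marker, stayed between 0 and 0.376 CPM throughout. In 3 libraries, D30 TMG replicate 2, D70 control replicate 2 and D70 TMG replicate 2, the mesenchyme and fibroblast markers summed to 2.19e+04 to 4.28e+04 CPM against 1.51e+03 to 3.7e+03 CPM in the other libraries of D30 and D70. D70 TMG replicate 2 also had PAX6 at 2.5 CPM and OTX2 at 0.0925 CPM. Without them 13 libraries remain and the groups D30 TMG, D70 control and D70 TMG hold 1 library each, whose spread is then assumed to be that of the other groups. Counts of called members and several of the named members are also given without them, and their part in other results was not tested. In bulk RNA, fewer cells of a type and less RNA per cell cannot be told apart.

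The members were spread over the time course. The mean of the 2 control libraries peaked at D0 for 37 members, at D12 for 36, at D30 for 31 and at D70 for 28, against 33.6%, 19.1%, 19.3% and 27.9% of all 24249 genes tested. Both control libraries of the highest stage lay above all other control libraries for 19 of the D0 members, 16 of the D12 members, 17 of the D30 members and 6 of the D70 members. These are 14.4%, 12.1%, 12.9% and 4.55% of members, against 20.2%, 6.83%, 6.72% and 9.21% of all genes tested. The TMG arm, which shares no library with the control arm, gave 37, 33, 35 and 27, against 35%, 19.3%, 20% and 25.6% of all genes. The same stage was highest in both arms for 29, 25, 16 and 14 members, against 27.5%, 11.6%, 9.43% and 17.3% of all genes.

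**Figure D1:**
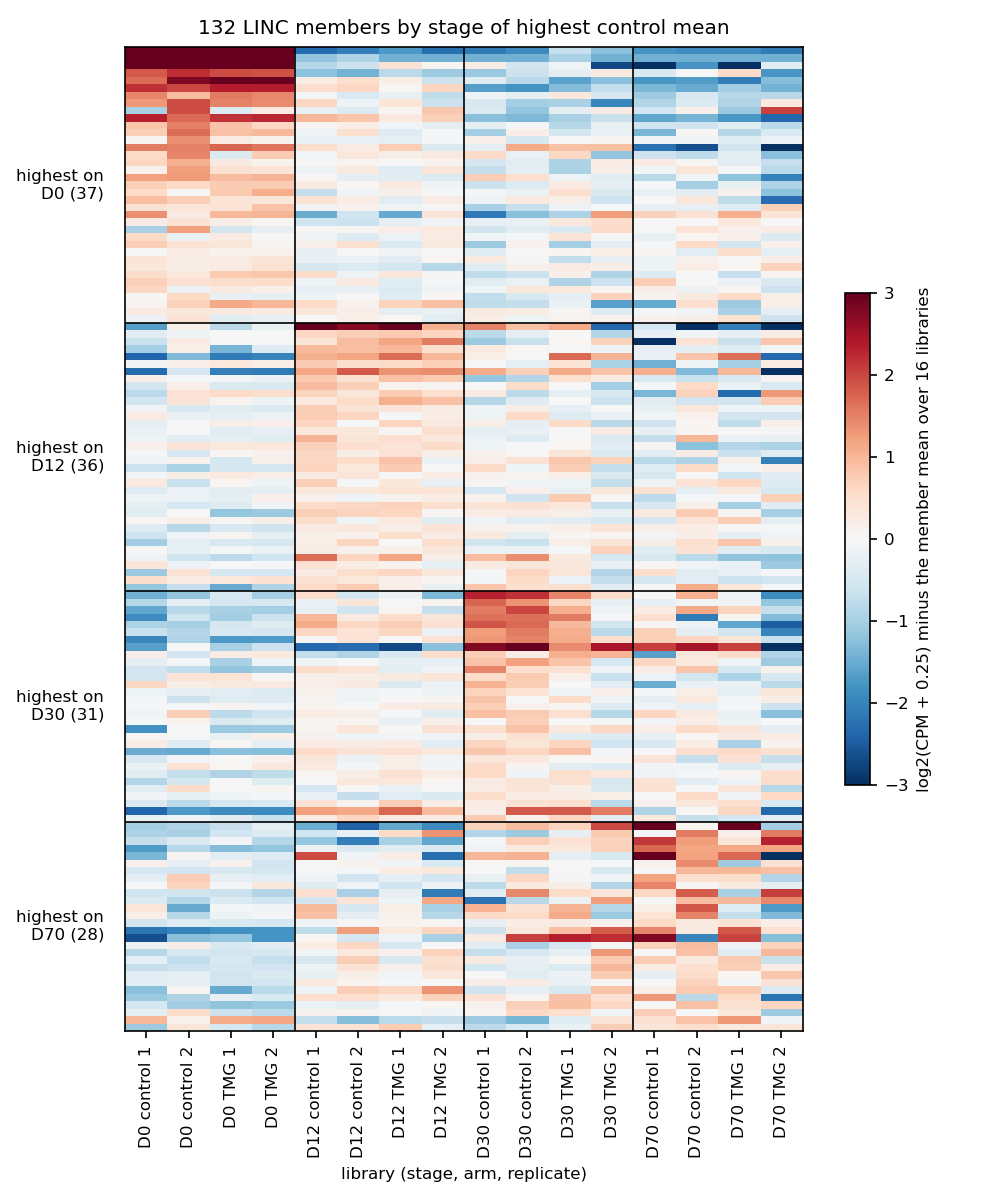
Heat map of the 132 members (one line each, ordered by stage of peak control mean and then by the ratio of that mean to the next stage) in the 16 libraries (columns), with colour for log2(CPM + 0.25) minus the mean of the member over all libraries, limited to 3 in each direction. The top of the D0 block, led by LINC00678, is dark red in all 4 D0 libraries and blue in most later ones, and most lines of the other blocks show weaker contrast.

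LINC00678 (ENSG00000254934, GRCh37 chr11:27639173-27656174, minus strand, between LIN7C and BDNF) was far higher in undifferentiated cells than later. Among members without overlap it had the largest ratio of the D0 control mean to the next control stage, 370 against 116 for LINC01194. Both ratios rest on few later counts, so their order is uncertain. On D0 LINC00678 measured 79.5 and 51.5 CPM in control and 69.5 and 73.7 CPM in TMG libraries. On D12 it measured 0.0491 and 0.109 CPM in control and 0.208 and 0.0621 CPM in TMG, and it stayed at or below 0.68 CPM in all libraries of D30 and D70. The D0 libraries lay far above all others in both arms and the later stages overlapped each other. From D0 to D12 the counts went from 2024 to 3 in control, an 855-fold fall after scaling (95% counting interval 292 to 4.15e+03), and from 2443 to 5 in TMG, a 508-fold fall (217 to 1.57e+03). Both falls passed the false discovery rate of 5% by the quasi-likelihood test of edgeR (adjusted p = 1.67e-05 in control and 2.09e-05 in TMG). The counting intervals cover counting error only. The nearest protein-coding gene, BDNF, 20266 bp away, encodes a neurotrophin and did not share the pattern: it measured 6.57 to 9.15 CPM on D0 and 2.68 to 5.4 CPM on D12.

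The promoter of LINC00678 was not unique in the genome. In windows from 250 bases before to 50 bases after the start of 55490 counted genes, 25 promoters (0.0451%), that of LINC00678 included, held a stretch of at least 30 bases in common with it. They included LINC-ROR (97 bases), known as a regulator of reprogramming and named without trailing digits, and ESRG (81 bases), a long known marker transcript of human embryonic stem cells. Both are known as HERV-H transcripts, although no repeat annotation was used here.

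Of the 25 genes with this promoter stretch, 13 passed the filter on low counts, 12 did not, and 4 of those were at 0 in all libraries. Among the other 12 tested genes, 10 fell from D0 to D12 in the control arm and 10 in the TMG arm, and 0 rose in either, where 9.71% of all genes tested fell in control and 9.19% in TMG. Genes of such low counts passed the filter through the stage where they were high, so the share is a description. ESRG measured 722 and 447 CPM in control and 717 and 694 CPM in TMG on D0, and at most 1.51 CPM on D12. The D0 and D12 libraries of ESRG were far apart in both arms, with a 716-fold fall in control (507 to 1.05e+03). LINC-ROR measured 0.68 to 2.01 CPM on D0 and 0 to 0.052 CPM on D12, a 40.5-fold fall in control (6.77 to 1.65e+03) that rests on 32 counts against 1. The unnamed gene ENSG00000258649 on chromosome 14 had 411 counts in control on D0 and 0 on D12, at least 174-fold lower against a floor of 3 counts over the group. The 2 tested genes that did not pass were ENSG00000258417 and IGFL2-AS1, and both had their highest control mean on D70. ENSG00000258417 measured 10.4 CPM in D70 control replicate 2 and at most 0.206 CPM on D0. IGFL2-AS1 measured 9.25 CPM in D70 TMG replicate 2 and 0 CPM on D0. In D30 TMG libraries, LINC00678 stood at 0.68 and 0.379 CPM against 0.094 and 0.151 CPM in control, ESRG stood at 7.48 and 2.08 CPM against 0.188 and 0.351 CPM, and the stem cell marker POU5F1 stood at 9.13 and 5.49 CPM against 0.094 and 0.401 CPM. Both TMG libraries were above both control libraries for the 3 genes, at levels far below D0. LINC00678 and ESRG did not pass the adjusted threshold there (adjusted p = 0.27 and 0.152, edgeR). Of the other stem cell markers summed, NANOG and TDGF1 also lay above both controls in both TMG libraries. The arms overlapped for LIN28A (20.6 and 12.2 CPM in control, 27.1 and 5.96 CPM in TMG) and DPPA4 (29.4 and 15.5 CPM, 23.3 and 11.4 CPM). LINC-ROR had 1 count in the D30 control libraries and 0 in TMG.

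**Figure D2:**
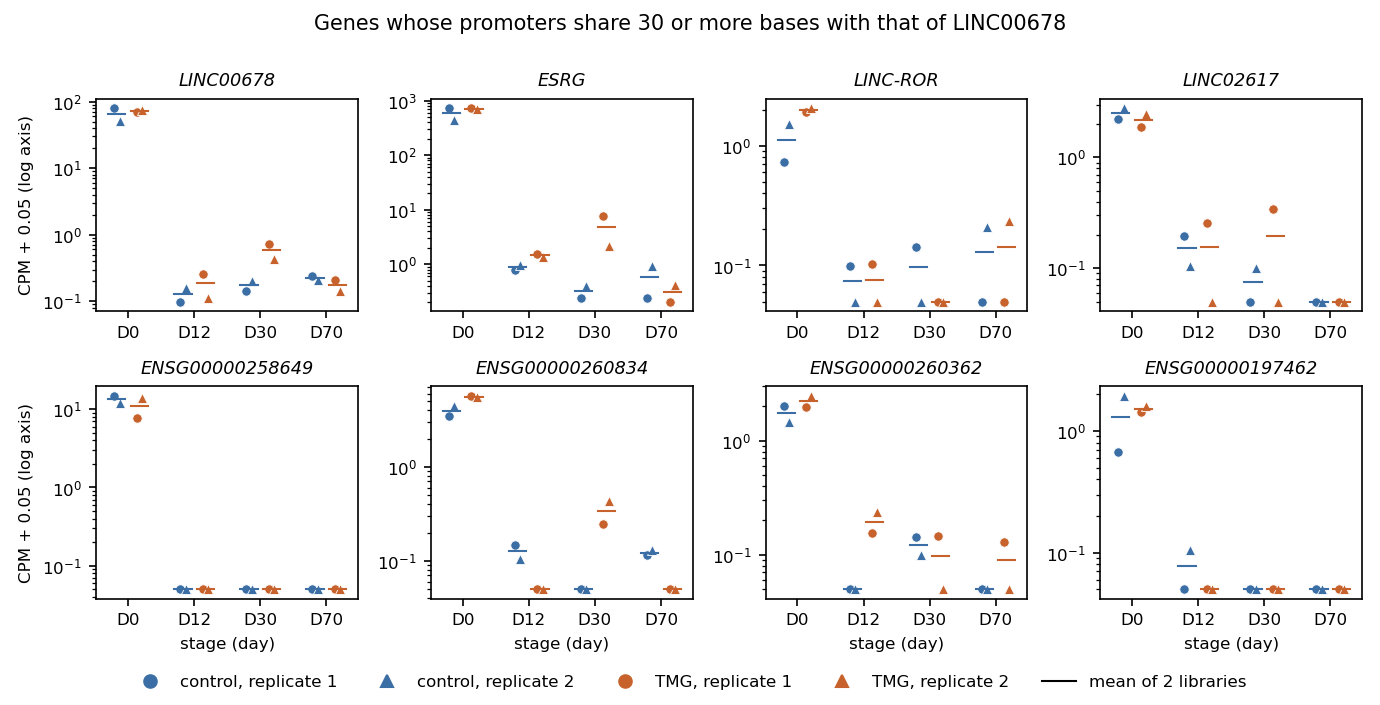
Level of LINC00678 and of 7 other genes whose promoters share 30 or more bases with it (CPM + 0.05, log axis) by stage, in control (blue) and TMG (orange) libraries, circles for replicate 1, triangles for replicate 2 and lines for the mean of 2 libraries. All 8 genes are highest in the D0 libraries of both arms, and the 7 others drawn are among the tested genes that fell from D0 to D12. ENSG00000258417 and IGFL2-AS1, which had their highest control mean on D70, are not drawn.

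Other members fell from D0 to D12 without this promoter. LINC02972 (ENSG00000249790, chr12:8940849-8948385) measured 88.3 and 76.2 CPM in control and 96.7 and 100 CPM in TMG on D0, and 4.77, 5.69, 11.9 and 9.38 CPM in the same order on D12. On D30 it measured 10.4, 5.92, 8.06 and 1.14 CPM, and on D70 0.321, 2.41, 0.869 and 7.03 CPM. The D0 libraries stood clear of all others. On D12 both TMG libraries lay above both controls (1.02, SE 0.92, adjusted p = 1, edgeR, over 16 libraries), and on D30 and D70 the arms overlapped. The fall to D12 was −3.97 ± 1.00 in control (log2 fold change ± SE, adjusted p = 0.0235, edgeR) and −3.21 ± 0.97 in TMG (adjusted p = 0.0455). LINC01194 (ENSG00000248131, chr5:12574942-12804475) measured 8.09 and 10.3 CPM in control and 12 and 12.6 CPM in TMG on D0, and no library of a later stage exceeded 0.109 CPM. Its fall was 117-fold in control (39.8 to 573, from 278 counts against 3) and at least 146-fold in TMG, where D12 had 0 counts.

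LINC00698, which lies between CADPS and SYNPR on chromosome 3, declined over more than 1 step. It measured 3.09, 7.06, 8.44 and 7.99 CPM on D0 in the order control replicates 1 and 2, TMG replicates 1 and 2, then 0.983, 1.26, 0.935 and 0.435 CPM on D12, and at most 0.185 CPM on D70. The stages did not overlap between D0 and D12 in either arm. The fall to D12 was 4.45-fold in control (3.15 to 6.4) and 11.6-fold in TMG (7.67 to 18.2). LINC01315 on chromosome 22, near TCF20, went from 10.4, 13.6, 11.3 and 11 CPM on D0 to 1.03, 0.876, 1.45 and 1.18 CPM on D12. Its later libraries lay between 0.647 and 4.19 CPM, well under D0. It fell by 3.64 on the log2 scale in control (adjusted p = 0.00592, edgeR) and by 3.07 in TMG (adjusted p = 0.0107).

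A pair of members in the zinc finger gene cluster of chromosome 19 fell in successive steps. The genes around them encode Krüppel-associated box zinc finger proteins, a family known for binding retroelements. LINC01224 (chr19:23581899-23598877, 3626 bp from ZNF91) measured 33.3, 29.2, 37.5 and 37.6 CPM on D0, 10.2, 11, 7.43 and 11.2 CPM on D12, 2.07, 1.86, 2.72 and 4.26 CPM on D30 and 2.64, 2.33, 3.4 and 2.5 CPM on D70. Each of the first 3 stages lay wholly below the one before, and D30 and D70 overlapped. LINC00664 (chr19:21666176-21686040, overlapping ZNF429) measured 42.3, 27.0, 37.7 and 40.3 CPM on D0, 16.7, 14.7, 10.1 and 13.6 CPM on D12, 3.29, 3.06, 4.08 and 5.11 CPM on D30 and 2.64, 2.98, 2.29 and 1.39 CPM on D70. It stepped down without overlap at each of these stages, D70 included. From D12 to D30 LINC01224 fell by 2.43 in control (adjusted p = 0.0068, edgeR) and LINC00664 by 2.3 (adjusted p = 0.00713), whereas the TMG values of −1.42 (adjusted p = 0.0598) and −1.37 (adjusted p = 0.0743) did not pass. Without the 3 mesenchyme-rich libraries the TMG values were −1.79 and −1.55 and both passed, with 1 library for D30 TMG and the spread of other groups. LINC00664 shares exon bases on the same strand with 2 counted genes, so its reads may be split with them. LINC00665, the member with the most counts, lies between the zinc finger genes ZNF565 and ZFP14 elsewhere on the chromosome. It measured 116, 107, 120 and 120 CPM on D0, 84.5, 71.6, 85.4 and 64.3 CPM on D12, 44.5, 52.8, 83.8 and 57.1 CPM on D30 and 67.3, 35.2, 60.1 and 36.7 CPM on D70. All D0 libraries lay above all later ones, and it fell from D0 to D70 by 1.12 in control (adjusted p = 0.0248) and by 1.31 in TMG (adjusted p = 0.0133). Without the 3 libraries it fell by 0.70 and 0.97 and both still passed (adjusted p = 0.0317 and 0.00797, edgeR).

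The members that rose on neural induction were mostly of moderate size of change. LINC02593, LINC02609, LINC01422, LINC00632, LINC02525, LINC02762, LINC01678, LINC00649 and LINC00641 rose from D0 to D12 in control. LINC02609 (between BARHL2, a homeobox gene of the developing brain and eye, and ZNF644) measured 0.803 to 1.4 CPM on D0 and 12.5 and 11.8 CPM in control and 17.7 and 10.3 CPM in TMG on D12. The 4 D12 libraries lay far above D0, and the rise was 3.46 in control (SE 0.90, adjusted p = 0.0261) and 3.49 in TMG (SE 0.89, adjusted p = 0.024). LINC01422 measured 1.75 to 2.13 CPM on D0 and 6.83 to 8.26 CPM on D12 and rose by 2.12 in control (SE 0.34, adjusted p = 0.00355) and 1.76 in TMG (SE 0.34, adjusted p = 0.00709). The libraries within each stage lay close together and the stages did not overlap. LINC02593 lies 2907 bp from SAMD11, and the neighbours went the same way: LINC02593 measured 3.4 to 4.53 CPM on D0 and 9.39, 38.8, 19.8 and 25.5 CPM on D12, and SAMD11 0.989 to 1.78 CPM on D0 and 14, 31.9, 27.6 and 22.7 CPM on D12. Their log2 fold changes in control were 2.74 (adjusted p = 0.0275) and 4.22 (adjusted p = 0.0175). LINC00641 and LINC00649 were among the 6 members with the most counts and rose by less. LINC00641, 2236 bp from HNRNPC, measured 32.2, 23.6, 30.4 and 27.7 CPM on D0 and 49.8, 52.9, 47.8 and 56.3 CPM on D12, and rose by 0.88 in control (adjusted p = 0.00908) and 0.84 in TMG (adjusted p = 0.0105).

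Some members peaked on D12. LINC00649, which overlaps ATP5PO, measured 61.3, 66.7, 69.0 and 62.5 CPM on D12 against 31.6 to 39.5 CPM on D0 and 21.5 to 40.3 CPM on D30. No library of another stage reached those of D12, and in control both the rise from D0 (0.93, adjusted p = 0.0478) and the fall to D30 (−1.20, adjusted p = 0.0463) passed. LINC03025 on chromosome 9 had the largest ratio of D12 to the next control stage, 4.88, but its libraries were spread widely, at 41.5 and 18 CPM in control and 21.7 and 5.47 CPM in TMG on D12. It was at 0.618 to 2.8 CPM on D0 and at 0 to 1.67 CPM on D70. LINC02981 measured 16 and 17.1 CPM in control and 24.4 and 15 CPM in TMG on D12 against 1.24 to 2.8 CPM on D0, and in the TMG arm it stood as high on D30 (24.9 and 15.3 CPM). Over 16 libraries its rise passed in TMG (3.61, SE 0.99, adjusted p = 0.0321, edgeR) and narrowly missed the threshold in control (3.04, SE 0.97, adjusted p = 0.0549, edgeR). Without the 3 mesenchyme-rich libraries the rises were 3.60 in TMG and 3.06 in control. LINC02820 measured 4.18 and 4.0 CPM in control and 4.31 and 2.92 CPM in TMG on D12, above all libraries of the other stages.

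Members highest on D30 included known neural transcripts. LINC00461 (ENSG00000245526, chr5:87803363-87986874, minus strand, 26060 bp from MEF2C) is a brain transcript whose neighbour MEF2C encodes a transcription factor of neurons and muscle. It measured 1.79, 6.16, 2.95 and 3.81 CPM on D0, 0.983, 1.04, 0.727 and 2.42 CPM on D12, 43.1, 58.2, 16.7 and 34.3 CPM on D30 and 26.6, 35.7, 26.1 and 0 CPM on D70. All D30 libraries lay above all of D12 and D0, and the 0 was in D70 TMG replicate 2. Over all 16 libraries the difference from D12 to D30 was 5.64 in control (SE 1.58, adjusted p = 0.0773, edgeR) and missed the threshold, and it passed by DESeq2 (adjusted p = 0.0005). Without the 3 mesenchyme-rich libraries, which change the shared spread and leave 1 TMG library on D30, it was 5.66 (adjusted p = 0.00121, edgeR) in control and 3.42 (adjusted p = 0.0235) in TMG. MEF2C moved earlier, with 1.24 to 2.03 CPM on D0 and 9.68 to 37.8 CPM on D12, and rose by 2.97 in control (adjusted p = 0.00946).

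LINC00632 on the X chromosome, whose locus also yields the circular RNA CDR1-AS, measured 2.84, 6.23, 3.43 and 3.45 CPM on D0, 11.6, 16, 11.7 and 16.1 CPM on D12, 29.6, 33.5, 25.9 and 16.8 CPM on D30 and 19.7, 18.8, 15.3 and 7.4 CPM on D70. Gene counts do not tell linear from circular transcripts. All D12 libraries lay above D0 and all D30 libraries above D12. It rose to D12 by 1.61 in control (adjusted p = 0.0272, edgeR) and by 2.01 in TMG (adjusted p = 0.0113). The further difference to D30 in control, 1.19, did not pass over 16 libraries (adjusted p = 0.134, edgeR). Without the 3 mesenchyme-rich libraries that difference was about as large, 1.21. LINC01567, which overlaps TNRC6A, measured 17.9 and 16.5 CPM in control and 9.91 and 5.02 CPM in TMG on D30 against 1.18 to 4.96 CPM on D12. The D30 libraries lay above all of D12, with a difference of 2.24 in control (adjusted p = 0.105) that became 2.26 (adjusted p = 0.00976) without the 3 libraries.

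LINC00957, 2334 bp from DBNL, measured 8.27, 11.5, 6.02 and 2.37 CPM on D30 against 1.55 to 2.86 CPM on D12. The TMG replicate 2 library of D30 fell inside the D12 range and the other 3 lay above it. LINC00888, annotated as a transcribed pseudogene, measured 33.1 and 24.9 CPM in control but 14.9 and 8.04 CPM in TMG on D30, where D12 had 8.45 to 12.5 CPM. LINC01579 measured 9.59, 9.58, 9.03 and 2.84 CPM on D30 and 3.56 to 6.0 CPM on D12. In all 3 of these members the lowest D30 library was TMG replicate 2, the D30 library with the high mesenchyme sum.

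**Figure D3:**
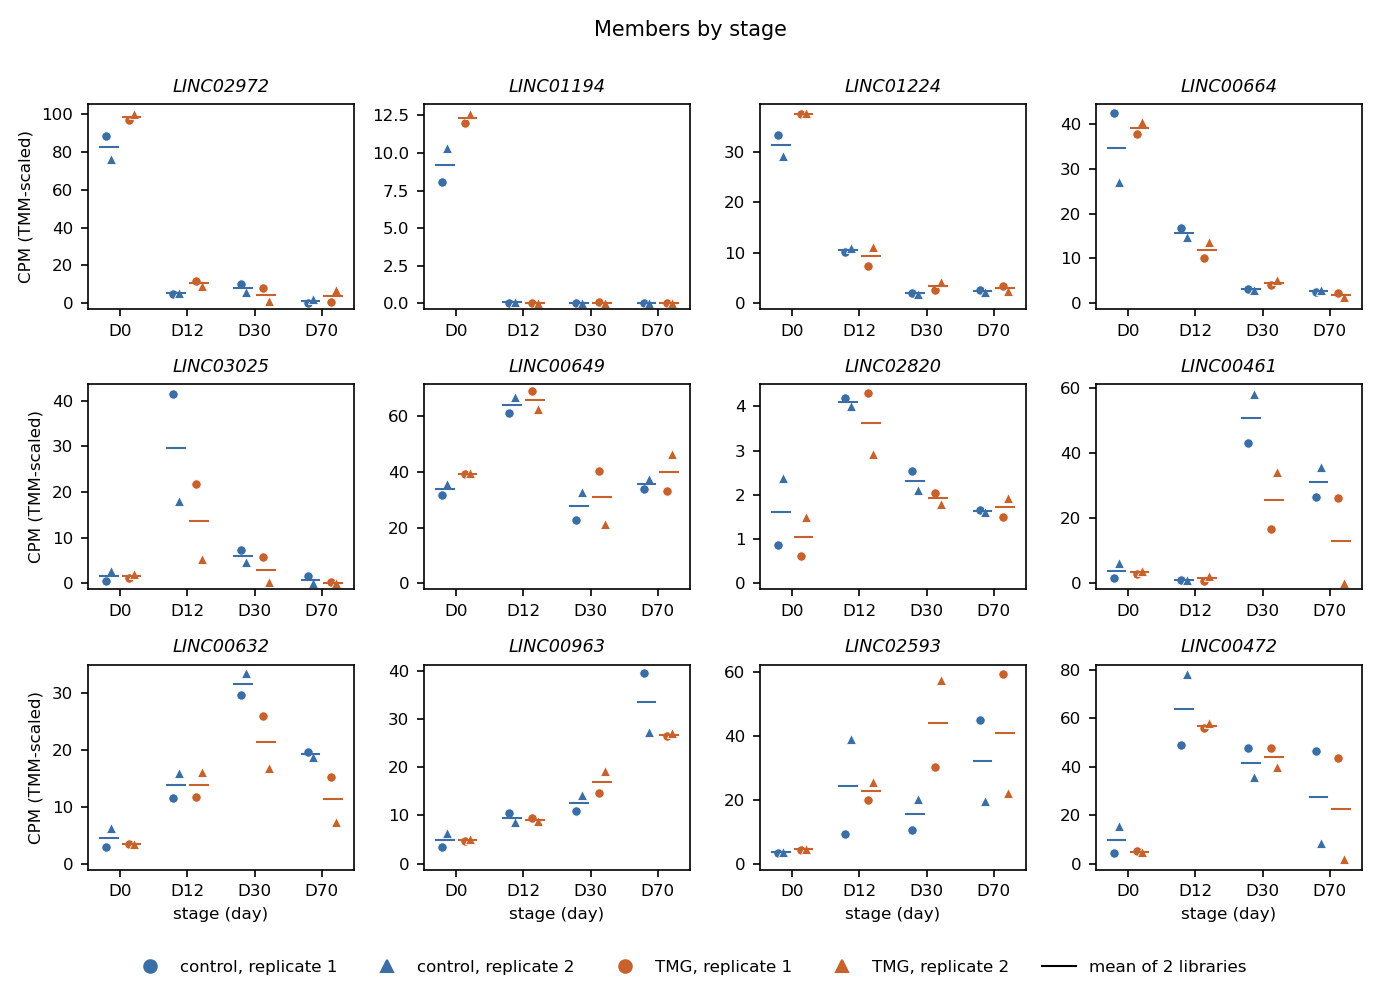
CPM of 12 members by stage (linear axes from 0), in control (blue) and TMG (orange) libraries, circles for replicate 1, triangles for replicate 2 and lines for the mean of 2 libraries. LINC01224 and LINC00664 step down in both arms, LINC00461 is near 0 until D30 and at 0 in D70 TMG replicate 2, and LINC00963 climbs to D70.

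Few members were clearly highest on D70. Among those without overlap, LINC00900 had the largest ratio of the D70 control mean to the next control stage, 2.89. LINC01503 followed with 2.73 and LINC00963 with 2.64, and levels of LINC01503 are not given here. LINC00963 (ENSG00000204054, chr9:132239225-132275966) measured 3.46, 6.43, 4.67 and 5.15 CPM on D0, 10.4, 8.65, 9.46 and 8.76 CPM on D12, 11, 14.3, 14.7 and 19.3 CPM on D30 and 39.5, 27.4, 26.5 and 27.0 CPM on D70. The stages did not overlap within either arm. From D0 to D70 it rose by 2.76 in control (SE 0.33, adjusted p = 0.000286) and by 2.44 in TMG (SE 0.32, adjusted p = 0.000524), and without the 3 libraries by 3.04 and 2.45. LINC02977 measured 4.37, 8.85, 8.93 and 8.14 CPM on D70 against 2.51 to 4.47 CPM on D30, and rose from D0 to D70 in both arms (1.19, adjusted p = 0.0411, and 1.5, adjusted p = 0.0166). Without the 3 mesenchyme-rich libraries the control value was 0.63 and no longer passed (adjusted p = 0.205, edgeR), and the TMG value was 1.59 (adjusted p = 0.00659). Control replicate 1 was the low library of its D70 group.

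On D70 the same replicate number was the higher in each arm for 79 of the 132 members (59.8%), against 69.5% of all genes, and the gap was wide in some of them. LINC00900 measured 1.67 and 5.71 CPM in control and 1.98 and 5.64 CPM in TMG, so replicate 2, with the high mesenchyme sum, was the higher in each arm. LINC01091 measured 20.3 and 1.45 CPM in control and 15.6 and 0.555 CPM in TMG, with replicate 1 the higher in each arm. LINC01833, 2503 bp from SIX3, a homeobox gene of forebrain and eye, measured 66.4 and 18.8 CPM in control and 27.3 and 0 CPM in TMG, and SIX3 84.3, 48.6, 37.2 and 0.37 CPM. LINC00472 measured 46.5 and 8.53 CPM in control and 43.5 and 1.94 CPM in TMG. The choroid plexus and retinal pigment epithelium markers were also uneven, summing to 1.01e+04 and 1.17e+03 CPM in control and 3.07e+03 and 7.49 CPM in TMG on D70, and their part in these levels was not tested.

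Over the members, D12 over D0 gave 20 calls in control, 9 higher and 11 lower, where 16.7% of all genes tested were called (6.97% higher, 9.71% lower). In TMG it gave 22, 11 in each direction, where 16.4% of all genes were called (7.24% higher, 9.19% lower). In both arms 15 members were called, all with the same direction, which is 75% of the control calls and 68.2% of the TMG calls, against 73.1% and 74.2% over all genes. Over the whole set of members the shares were thus near those of all genes. DESeq2 called 30 in control, 16 higher and 14 lower (21.9% of its genes), and 31 in TMG, 18 higher and 13 lower (22.5%). With the 4 libraries of a comparison alone edgeR called 31 in control, 18 higher and 13 lower (27.4% of all genes), and 60 in TMG, 41 higher and 19 lower (42.6%). Leaving out any 1 of the 4 libraries compared lowered the control count to between 4 and 10 and the TMG count to between 5 and 7, and all-gene shares to between 3.96% and 6.96% and between 3.21% and 6.36%. In control the 4 came without either D12 library, 7 without D0 replicate 1 and 10 without D0 replicate 2, and in TMG 5 and 6 came without D0 replicates 1 and 2 and 7 without either D12 library. The median log2 fold change over the members was 0.34 in control, against 0.00 over all genes tested. The 8 libraries of D30 and D70 took no part in this comparison, and 72 members reached the minimum in them alone. Of these, 6 were called in control (8.33%), all higher, and 9 in TMG (12.5%), 8 higher and 1 lower. Over all genes the shares were 16.7% and 16.4%. Counts on D30 and D70 favour members that did not fall, so these directions and shares are partly set by the choice. Every call of a lower level in control came from a member that needed counts of D0 or D12 to enter.

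**Figure D4:**
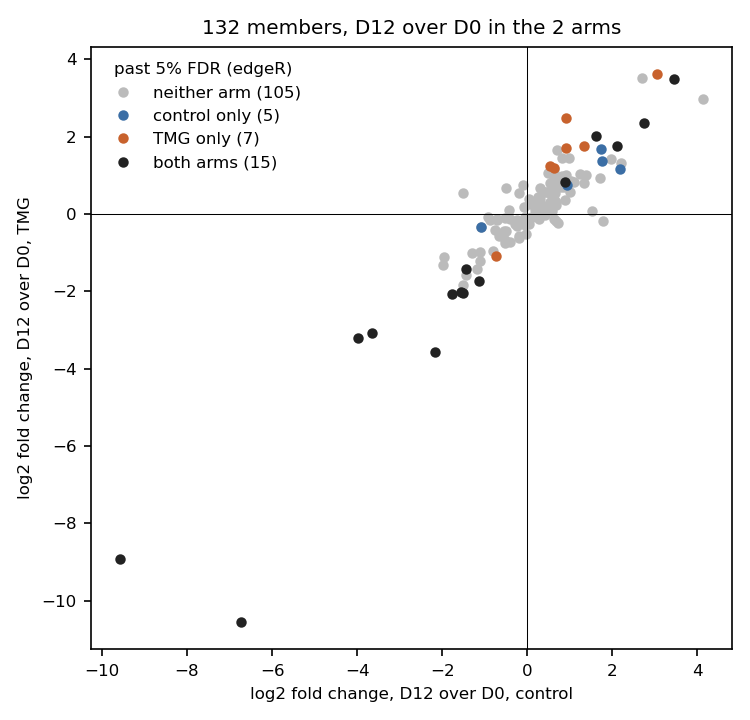
Log2 fold change of D12 over D0 for the 132 members in control (x axis) and TMG (y axis), black where both arms passed the 5% false discovery rate (15), blue for control alone (5), orange for TMG alone (7) and grey for neither (105). All black points lie in the lower left or upper right quadrant, with LINC00678 and LINC01194 at the lower left.

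Later steps gave fewer calls. D30 over D12 gave 4 in control, where 3.6% of all genes were called (1.91% higher, 1.69% lower), and all were lower: LINC01224, LINC00664, LINC00649 and LINC00470. Leaving out D30 control replicate 2 gave 2 (0.775% of all genes), and leaving out any other of the 4 libraries gave 0 (0% to 0.031% of all genes). DESeq2 called 11 in control (11.9% of its genes). In TMG edgeR called 0 members (0.511% of all genes), 17 had an unadjusted p under 0.05 (15% of all genes), and DESeq2 called 5 (6.14%). Without the 3 mesenchyme-rich libraries the control count became 19, 11 higher and 8 lower, where 16.5% of all genes were called (9.18% higher, 7.3% lower), and the TMG count 5 (5.12% of all genes). For D12 over D0 the same fit called 45 in control, 29 higher and 16 lower (32.4% of all genes, 15.3% higher and 17.1% lower), and 47 in TMG, 31 higher and 16 lower (31.6%, 15.4% higher and 16.3% lower). For D70 over D30 edgeR called 0 in control (0.384% of all genes), with 23 below an unadjusted p of 0.05 (18.4%) and 13 called by DESeq2 (8.35%). In TMG edgeR called 0 (0.00825% of all genes), with 15 below an unadjusted p of 0.05 (11%) and 1 called by DESeq2 (1.71%). Leaving out D70 TMG replicate 1, which leaves the mesenchyme-rich replicate 2 alone on D70, gave 13 in TMG, all lower (6.29% of all genes, 3.08% higher and 3.21% lower). Without the same libraries, where each D70 group and D30 TMG are 1 library and the spread comes from other groups, 13 were called in control, 3 higher and 10 lower (9.54% of all genes, 6.71% higher and 2.83% lower), and 1 in TMG, LINC02972 (−3.16, where 0.256% of all genes were called). Between the ends of the series, D70 over D0, 30 members were called in control (13 higher, 17 lower) where 29.8% of all genes were called (15% higher, 14.7% lower). In TMG it was also 30 (12 higher, 18 lower) where 29% were called (14.9% higher, 14.1% lower), and 23 members were called in both arms (76.7% of the calls in each arm, against 73.5% and 75.4% over all genes). Without the 3 libraries 42 were called in control and 47 in TMG, where 37.8% and 35.1% of all genes were called, and 25 and 27 of the earlier 30 were among them. LINC00900, LINC01473, LINC02614, LINC02762 and LINC02977 were no longer called in control, nor LINC00612, LINC01503 and LINC02525 in TMG. DESeq2 called 37 in control, 20 higher and 17 lower (31.7% of its genes), and 38 in TMG, 17 higher and 21 lower (31.9%). Leaving out D0 control replicate 1 or 2 lowered the control count to 19 or 15 (14.2% and 15.2% of all genes), and leaving out D0 TMG replicate 1 or 2 lowered the TMG count to 12 or 11 (10.9% and 11%). With the 4 libraries of a comparison alone it was 15 in each arm (15.1% and 13.4%).

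TMG gave no member past the adjusted threshold in the edgeR fit over 16 libraries without a replicate block. There 0 members and 0% of all genes passed at each of the 4 stages, and without D70 TMG replicate 1 there were 4 members on D70, all lower (3.07% of all genes). With a replicate block within the stage edgeR passed 1 member on D30, LINC00342 (0.961% of all genes), and 0 at the other stages. DESeq2 passed 0 members at D0 (0.0116% of its genes), 0 at D12 (0.0514%), 3 at D30 (3%) and 0 at D70 (0.218%). With an unadjusted p below 0.05, 2 members were lower at D0 (1.26% of all genes, 0.895% lower) and 3 differed at D12 (2.48%). At D30 there were 12 higher and 8 lower (12% of all genes, 7.1% higher and 4.89% lower), and at D70 0 higher and 9 lower (5.49% of all genes, 2.61% higher and 2.88% lower). Both TMG libraries lay on 1 side of both controls for 39.4% of members on D0 (36.6% of all genes), 34.1% on D12 (34.3%), 50.8% on D30 (44.1%) and 27.3% on D70 (22.1%). On D70 31 of these members were lower and 5 higher under TMG, where 12.4% of all genes were lower and 9.77% higher, and the library D70 TMG replicate 2, in which members took the least of all counts, is 1 of the 2 behind this. Without the 3 libraries 0 members passed for TMG by edgeR, where 0%, 0.00394%, 0.13% and 0.0472% of all genes did at the 4 stages in order, and 8, 8, 13 and 15 members had an unadjusted p below 0.05, against 2.83%, 7.46%, 9.48% and 7.55% of all genes. The 13 on D30 were then 5 higher and 8 lower and the 15 on D70 8 higher and 7 lower, so the one-sided count on D70 did not hold without these libraries.

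LINC00470 (ENSG00000132204, chr18:1254384-1408345) had the lowest p of any member under TMG. On D30 it measured 1.41 and 1.76 CPM in control and 4.95 and 4.07 CPM in TMG, where D12 had 6.14, 4.87, 6.55 and 6.15 CPM. The TMG libraries of D30 lay above both controls, the lower of them below all D12 libraries and the higher just above the lowest of D12. The difference was 1.5 (SE 0.33, unadjusted p = 0.000809, adjusted p = 0.171, edgeR), it passed by DESeq2 (adjusted p = 0.00972), and it was 1.59 without D30 TMG replicate 2 and the D70 libraries left out with it. On D0 it measured 3.89 and 3.36 CPM in control and 3.29 and 3.04 CPM in TMG, a difference of −0.20. LINC00342, 1916 bp from ANKRD36C in a duplicated part of chromosome 2 where reads may be shared between copies, measured 1.97 and 5.52 CPM in control and 8.84 and 24.4 CPM in TMG on D30 (2.12, adjusted p = 0.269, edgeR). With a replicate block within the stage it passed (2.15, adjusted p = 0.0296, edgeR), and with 1 library left out it ran from 1.21 to 3.07 and did not pass. On D12 its level was also higher in TMG replicate 2, the library with the high neural crest sum, at 22.9 CPM against 6.63 to 13.4 CPM in the others. Without the 3 libraries the D30 difference was 1.15.

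LINC00888, described above at D30, was 1.34 lower on the log2 scale in TMG (adjusted p = 0.258, edgeR, and 0.0468 by DESeq2). Both TMG libraries lay below both controls, and the value without the 3 libraries was −1.0. LINC02525, which lies between the tubulin genes TUBB2A and TUBB2B, measured 6.77 and 5.92 CPM in control and 3.5 and 1.04 CPM in TMG on D30, and 1.74 and 1.45 CPM in control and 0.395 and 0.0925 CPM in TMG on D70. The arms did not overlap at either stage, and the D70 value of 0.0925 CPM is below the level of 3 counts. The D70 difference was −2.63 (SE 0.67, unadjusted p = 0.00237, adjusted p = 0.856, edgeR) and −2.11 without the 3 libraries. LINC02985, 1262 bp from BCL7A, measured 2.06 and 3.46 CPM in control and 1.5 and 0.74 CPM in TMG on D70, and LINC00612 2.31 and 2.98 CPM against 1.26 and 0.277 CPM. Both were lower in both TMG libraries (−1.28 and −1.74), and without the 3 libraries these differences were −0.45 and −0.86.

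None of the members with the 3 lowest p on D0 and on D12 passed the adjusted threshold. On D0 LINC02897 measured 1.92 and 2.52 CPM in control and 0.961 and 1.03 CPM in TMG, LINC00663 5.81 and 10.8 against 3.57 and 4.12 CPM, and LINC02447 1.92 and 3.64 against 1.44 and 1.29 CPM. The TMG libraries were the lower ones in all 3 members, and all adjusted p were 1 by edgeR. On D12 LINC00900 measured 1.08 and 1.48 CPM in control and 2.75 and 4.85 CPM in TMG (log2 fold change 1.56, SE 0.66), and LINC00174 24 and 22.1 against 13.5 and 16.5 CPM (−0.62, SE 0.27). LINC01194 was the third of these on D12, from 3 counts in control against 0 in TMG. All 3 adjusted p were 1 by edgeR. The difference of the TMG effect between consecutive stages was called for 0 members (0% of all genes) by edgeR and for 0 members by DESeq2. DESeq2 called 0.0124% of all genes for D12 against D0 and 0.0779% for D30 against D12. Below an unadjusted p of 0.05 there were 1 member for D12 against D0 (1.07% of all genes), 4 for D30 against D12 (3.41%) and 4 for D70 against D30 (4.03%).

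**Figure D5:**
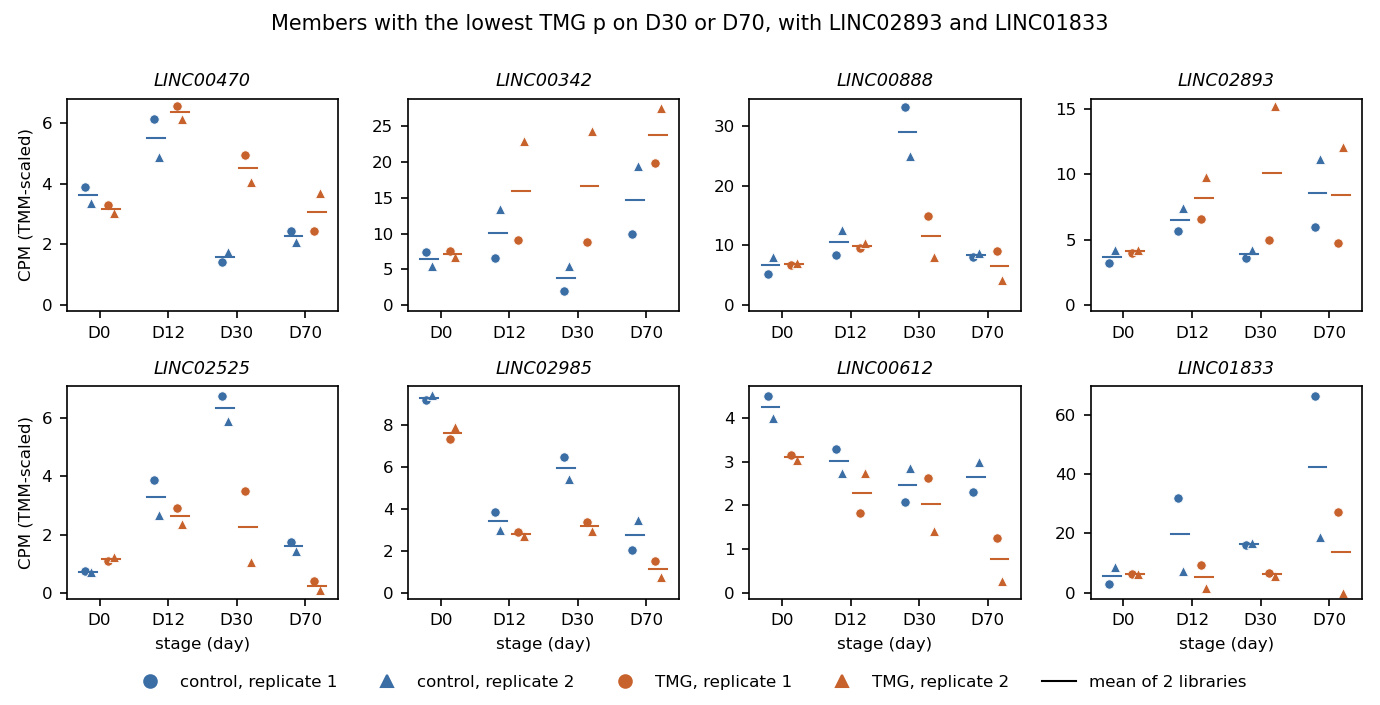
CPM by stage of the 3 members with the lowest TMG p on D30 (LINC00470, LINC00888, LINC00342), the 3 with the lowest on D70 (LINC02525, LINC02985, LINC00612), LINC02893 and LINC01833, in control (blue) and TMG (orange) libraries, circles for replicate 1, triangles for replicate 2 and lines for the mean of 2 libraries. The D30 libraries of LINC00470 separate by arm (1.41 and 1.76 CPM against 4.95 and 4.07 CPM), and no TMG difference drawn passed the adjusted threshold in the edgeR fit over 16 libraries without a block.

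Of the 6 members with the most counts, LINC00665, LINC00649 and LINC00641 are described above. LINC02210, which shares exon bases with the readthrough gene LINC02210-CRHR1, lay between 30.7 CPM (D70 TMG replicate 2) and 91.2 CPM (D12 control replicate 1). LINC01089, which overlaps RHOF and lies 103 bp from SETD1B, lay between 37.3 and 69.2 CPM with overlap of all stages. LINC01001 measured 66.4 to 79.3 CPM on D0 and 36.4 to 44.8 CPM on D70, without overlap, and fell by 0.77 in control (adjusted p = 0.0238) and 0.97 in TMG (adjusted p = 0.00885), and by 0.82 and 1.00 without the 3 libraries. On D30 it measured 55.2 and 83.4 CPM in control against 50.1 and 35.2 CPM in TMG (−0.70, adjusted p = 0.27, edgeR).

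LINC00472 on chromosome 6 carries the hairpins of MIR30A and MIR30C2 on its strand. It measured 4.2, 15.4, 5.08 and 4.84 CPM on D0, 49.0, 78.4, 55.9 and 58.1 CPM on D12 and 47.6, 35.7, 47.9 and 39.8 CPM on D30. All D12 libraries lay above all D0 libraries. The difference in control was 2.70 over 16 libraries (adjusted p = 0.12, edgeR) and 2.73 (adjusted p = 0.00389, edgeR) without the 3 mesenchyme-rich ones. The 5p miRNAs of the 2 hairpins share 1 seed, shown in capitals (bases 2 to 8) from RefSeq on GRCh38.p14, and mature miRNAs were not measured in these libraries.

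hsa-miR-30a-5p: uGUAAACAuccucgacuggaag

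hsa-miR-30c-5p: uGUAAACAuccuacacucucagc

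LINC00511, known from several tumours, was decided by 1 library: it measured 2.47 and 20.4 CPM in control on D0 and 4.32 and 3.67 CPM on D12. Among the names looked up from general knowledge, LINC00678, LINC00461, LINC00632, LINC00472 and LINC00511 were members. LINC00599, LINC01158, LINC00617 and LINC00473 of the same list matched no symbol of the counted genes, so their levels are not known here. Under the minimum were the stem cell names LINC01108 with 288 counts, LINC01356 with 261 and LINC00458 with 121, the neural names LINC01551 with 354 and LINC00689 with 242, and the endoderm name LINC00261 with 13. The endoderm transcript was thus almost undetected.

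Positions of the members varied around protein-coding genes. By the annotation 127 of 132 are long noncoding RNAs and 22 overlap a protein-coding gene. Overlapped genes were left out of the distances to neighbours. A counted protein-coding gene that is not overlapped lies within 10000 bp of 44 members. The median distance to the nearest such gene was 23661.5 bp. Exon bases are shared with another counted gene by 46 members, 16 of them on the same strand, and whether counting used strand is not stated, so reads over the shared bases may belong to either gene. LINC00461, LINC00649 and LINC00665 are among the 46 and share bases on the opposite strand alone. LINC00664, LINC02210, LINC00472, LINC03025, LINC00174, LINC00663 and LINC01089 are among the 16 that share them on the same strand. Of 121 members with a tested nearest neighbour that they do not overlap, 44 (36.4%) were highest at the same control stage as the neighbour. Within 10000 bp it was 17 of 41 (41.5%), where the product of the stage shares gives 25%. LINC01896, 744 bp from SALL3, is an example: it measured 17 to 20.1 CPM on D0 and 0 to 3.87 CPM on D70, and SALL3, a zinc finger gene of early development, 115 to 194 CPM and 0 to 27.8 CPM.

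Of the 132 member promoters, 48 (36.4%) shared at least 30 bases with another counted promoter, against 36% of all promoters, and 10 shared them with another member. LINC00115 and LINC01128 are 2 of the 10 and start near each other on opposite strands of chromosome 1, so their shared 158 bases are 1 piece of the genome read from both sides. The largest group within the members was LINC01876, LINC02893, LINC00491, LINC00648, LINC02315 and LINC02820, which share stretches of up to 121 bases although they lie on chromosomes 2, 9, 5, 14, 14 and 12. From background knowledge the stretch may belong to the antisense promoter of LINE-1 elements. It was not compared with a LINE-1 sequence, and no repeat annotation was used here.

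In all, 48 promoters (0.0865%) held 30 or more bases of the LINC01876 promoter, and 28 of these genes were tested. The highest control mean of the 27 other tested genes was on D0 for 8, D12 for 11, D30 for 2 and D70 for 6. From D12 to D30 in control 25 of the 27 had a lower level, with a median of −0.90, against a median of −0.04 over all genes, 47.5% of which had a positive value. Genes of low counts pass the filter through the stages where they are high. For most of the 27 that was D0 or D12, so a fall to D30 was favoured and these values are a description. Of the 27, 5 had an unadjusted p below 0.05, against 20.4% of all genes, and edgeR called 0 after adjustment, against 3.6% of all genes. In TMG 18 of the 27 were lower, with a median of −0.56. LINC01876 itself measured 6.61 to 12.6 CPM on D0, 12.5 to 15.6 CPM on D12, 8.8 to 17.1 CPM on D30 and 9.74 to 18.4 CPM on D70, with overlap between neighbouring stages when the arms are pooled. Within each arm D0 and D12 did not overlap, at 6.61 and 8.6 against 12.5 and 15.5 CPM in control and 12.6 and 9.58 against 15.6 and 12.9 CPM in TMG. The rise was 0.88 in control (adjusted p = 0.14, edgeR) and 0.37 in TMG (adjusted p = 0.557, edgeR) over 16 libraries. LINC02893 measured 3.57 and 4.22 CPM in control and 4.95 and 15.2 CPM in TMG on D30, and 11.2 and 12.1 CPM in the replicate 2 libraries of D70 against 5.98 and 4.74 CPM in replicate 1. The 3 mesenchyme-rich libraries were thus its highest, above 9.82 CPM in D12 TMG replicate 2. The authors' estimates divide reads that fit several places, so levels of genes with repeated exons carry that uncertainty.

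Of 7 short motifs searched, 5 were in a smaller share of member promoters than of all promoters and 2 in a larger one, and these differences were not tested. The octamer ATTTGCAT, on either strand, was in 1.52% of member promoters and 2.18% of all promoters, CATTGTT in 1.52% and 4.1%, the E-boxes CAGATG in 9.09% and 16.1% and CAGCTG in 17.4% and 15.9%, TGACGTCA in 1.52% and 1.18%, TATAAA in 7.58% and 17.2%, and CCAAT in 35.6% and 36.9%. The median GC content was 57.2% in member promoters and 50% in all. A match is a run of letters and not a binding site.

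From D0 to D12 in control, 15.2% of the members were called, against 11% of 281 tested LINC genes with fewer counts, 11.7% of 914 antisense genes, 9.62% of 52 miRNA host genes and 46.2% of 26 snoRNA host genes, of which 12 fell and 0 rose. These shares were not tested against each other, and depth differs between the classes.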

How the data were processed

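The authors aligned reads of rRNA-depleted total RNA to hg19 with Bowtie2 and deposited estimated counts per Ensembl gene of GRCh37 from RSEM 1.2.12 as whole numbers, not normalized, with RSEM dividing reads that fit several genes. A strand setting is not given in the sources used here. Members and lists were chosen with earlier results of these data known. From the counts, edgeR 4.0.16 in R 4.3.3 (filterByExpr, minimum count 10, total 15, TMM, robust quasi-likelihood fit) fitted 8 group means over 16 libraries with 8 residual degrees of freedom, and p-values were adjusted by Benjamini-Hochberg over 24249 genes. DESeq2 1.42.0 was the alternative used, others being RLE scaling, no filter, a replicate block, 4 libraries alone and leaving out each library. A fit without 3 mesenchyme-rich libraries and the D70 over D0 comparison were added after seeing the data. Promoters (250 bases before to 50 after a start) were read from GRCh37 with GENCODE 44 lifted to it, which is newer than the gene models counted. The promoter sequences themselves are not reported here. Python 3.11.15, pandas 2.3.3 and pysam 0.24.0 were used. Members named were the 6 with the most counts, the 4 per stage with the largest ratio to the next control stage among those without overlap, the 3 per stage with the lowest TMG p, a general list, and near neighbours. Further members that passed a threshold or resembled these were picked after their values were seen. The edgeR test of D12 over D0 in control was tried on simulated counts, and the other tests and fits were not. Fold ratios of low counts carry exact 95% intervals, with a floor of 3 counts for a count of 0.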

Additional observations from a re-analysis of the deposited data

Results flagged for a closer look

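Both TMG libraries lay on one side of both control libraries at one stage and on the opposite side at another for 24 of the 132 members (18.2%), against 14.8% of all genes tested. Between consecutive stages this held for 16 members (12.1%, against 8.69% of all genes), and edgeR called the difference of the TMG effect between consecutive stages for 0 members. Between stages that are not consecutive it held for 12 members (9.09%, against 9.93% of all genes), where the difference was not tested. Of the 12 members named for the lowest TMG p at a stage, LINC01194 switched between consecutive stages alone, LINC02525 between stages that are not consecutive alone, and LINC00470 in both ways. For LINC00470 the TMG libraries were above the controls on D30, with a log2 fold change of 1.5, and below them on D0, with −0.20. For LINC02525 they were below the controls on D70, with a log2 fold change of −2.63, and above them on D0, with 0.69.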

How the results depend on the processing

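The 2 libraries of a group differed by more than counting error. Chi-square per degree of freedom between replicates was 25.55 to 158.8, where counting error gives 1. D12 over D0 gave 20 members in control and 13 without a filter on low counts, 31 with 4 libraries only and 45 without the 3 libraries with high mesenchymal marker sums (an alternative chosen after seeing the data), where 7.13%, 27.4% and 32.4% of all genes were called, and leaving out 1 library in turn gave 4 to 10. In TMG the count of 22 became 13, 60 and 47 in the same order (7.23%, 42.6% and 31.6% of all genes), and 5 to 7 with 1 library left out. D30 over D12 in control gave 4, and 11 by DESeq2, 18 with 4 libraries only (15.6% of all genes), 19 without the 3 libraries and 0 to 2 with 1 library left out. In TMG it gave 0, and 5 by DESeq2, 5 without the 3 libraries and 0 to 1 with 1 left out, where the 1 came without D30 TMG replicate 1 (0.692% of all genes). D70 over D30 in control gave 0, and 1 without a filter (0.767% of all genes), 13 by DESeq2, 13 without the 3 libraries and 0 to 1 with 1 left out, where the 1 came without D70 control replicate 2 (0.201% of all genes). In TMG it gave 0, and 1 by DESeq2, 1 without the 3 libraries and 0 to 13 with 1 left out, the 13 without D70 TMG replicate 1 (6.29% of all genes). TMG on D30 gave 0, and 1 with a replicate block within the stage (LINC00342, 2.15, adjusted p = 0.0296 by edgeR, where 0.961% of all genes passed) and 3 by DESeq2 (3%). TMG on D70 gave 0, and 4 without D70 TMG replicate 1 (3.07% of all genes). Leaving out 1 library gave 0 on D0, D12 and D30. With 1 control library left out, 33 to 39 members peaked at D0, 29 to 39 at D12, 30 to 33 at D30 and 23 to 34 at D70. LINC00472 under TMG on D30 was 0.08 and ran from −0.12 (without D30 control replicate 2) to 0.29 with 1 library left out, with −0.06 without D30 TMG replicate 1. LINC00511 from D0 to D12 in control was −1.51 and ran from −2.32 to 0.69, the latter without D0 control replicate 2. The causes were not tested. RLE scaling moved the median of all genes by at most 0.044. The labels do not say that a replicate number marks a shared batch. Deviations of equally numbered libraries correlated between the arms at 0.0453, 0.367, 0.223 and 0.607 for the 4 stages in order, over 0.1 at 3 of the 4. The main fit did not take the numbers as pairs, because D0 lay below 0.1 and no label names a batch. Whether libraries of D12, D30 and D70 share replicate effects was not tested, and the block within the stage changed the D30 calls as given above. Under the replicate block across stages, the control counts were 19, 4 and 0 (17.6%, 4.38% and 0.759% of all genes), the TMG counts 22, 0 and 0 (17.4%, 0.689% and 0.00825%), and 0 members passed for TMG at any stage.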
